A study of Mus musculus with 2 samples.

Results

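Conventional dendritic cells type 2 (cDC2) of mouse colon lamina propria were chosen from single-cell RNA sequencing by a rule on measured counts. A kept cell was called cDC2 when at least 3 of Cd209a, Clec10a, Kmo, Ffar2, Flt3 and Dpp4 had a unique molecular identifier (UMI, which counts 1 captured RNA molecule). In such a cell Xcr1, Clec9a, Fscn1, Cd3e and Cd79a were also at 0, and C1qa, C1qb and C1qc together had at most 1 UMI. The rule found 707 cDC2 among 20052 kept cells, with 383 of 11885 coming from the library labelled Runx3_fl and 324 of 8167 from that labelled Runx3.

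cDC2 are antigen-presenting cells that take up material in the tissue, show peptides on MHC class II to CD4 T cells, and travel to lymph nodes under the chemokine receptor CCR7. They carry SIRPα and, in the gut, mostly CD11b, whereas cDC1 carry XCR1 and CLEC9A and present to CD8 T cells. In most tissues cDC2 use the transcription factor IRF4 and the receptor NOTCH2. They share Ly6C, CD11b and other surface proteins with monocytes, so RNA of monocytes needs to be read beside them.

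The study compared RUNX3 fl/fl Lyz2-Cre mice with RUNX3 fl/fl littermates, so both groups carried the floxed alleles, and Lyz2, a lysozyme gene of monocytes, macrophages and neutrophils, drove the Cre. There was 1 library per group, made from pooled cells of 6 untreated male mice aged 8 weeks, with no number of animals given per library. The labels describe CD11b-positive cells of gut lamina propria. T cells were nevertheless 24.6% of kept cells in Runx3_fl and 4.79% in Runx3, and B cells 2.56% and 13.1%. Shares below are therefore of all kept cells, not of a pure CD11b-positive population. The titles Runx3_fl and Runx3 do not state which library carried Cre, so both are called by their titles, and no difference between them has a replicate check. Everything that differed between the animals, sorts and runs of the 2 libraries cannot be told apart from the genotype.

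Sequencing depth in cDC2 was close in the libraries, with a median of 13999 UMIs per cell in Runx3_fl and 13458.5 in Runx3, and 5637914 and 4742539 UMIs in all. All kept cells had medians of 9573 and 5731 UMIs. Among cells meeting the rest of the rule, median depth was 6199 and 2295.5 UMIs with 0 of the 6 genes. It was 16408 and 16860 UMIs with all 6, so the rule favoured deep cells. The libraries shared 37 cell barcodes, 0 of them among cDC2. In Runx3_fl, 129 of 383 cDC2 (33.7%) held a UMI of Xist, the RNA of the inactive X chromosome in females, and 22 of these also held a Y-linked UMI. In Runx3, 0 of 324 did, which goes with male animals. The stated male sex therefore did not hold for the library labelled Runx3_fl, and results were repeated without cells holding Xist, an alternative added after seeing the data. Neutrophil RNA was more abundant in cDC2 of Runx3. The summed level of 8 neutrophil markers was 1485 counts per 1000000 UMIs (CPM) there, with none at 0, against 73.4 CPM in Runx3_fl, with Ly6g at 0. The sum of 8 macrophage and monocyte markers was 1087 against 274 CPM, with Mertk at 0 in Runx3_fl, and that of 8 plasma cell markers was 397 against 153 CPM. Ly6c2 alone made up most of the macrophage and monocyte sum in each library, and its levels are given below. S100a8 also went from 21.6 to 1652 CPM in T cells, so neutrophil RNA was not particular to cDC2. Its part in the differences below was not tested.

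The genes of the rule are a description of how cells were chosen. Kmo (kynurenine 3-monooxygenase) had a UMI in 74.9% of cDC2 of Runx3_fl and 75.3% of Runx3, Dpp4 in 80.9% and 84.3%, and Flt3, the receptor for the dendritic cell growth factor FLT3L, in 62.9% and 71.6%. Ffar2, a receptor for short-chain fatty acids, had one in 58.5% and 43.2%. The C-type lectin Cd209a had one in 41.8% and 57.1%, and Clec10a in 46.7% and 47.5%. At least 1 of the 2 lectins was detected in 58.7% of cDC2 of Runx3_fl and 73.5% of Runx3, so the rule also took cells without them. Cells at the edge of the rule, with exactly 3 of the 6 genes, numbered 192 and 142, and their level of Zbtb46, a dendritic cell transcription factor, was 128 and 122 CPM. Cells just outside, with 2 of the 6, numbered 238 and 248 and held 124 and 83.6 CPM. H2-Aa was 6061 and 5335 CPM just inside against 5507 and 3797 CPM just outside. S100a8 in Runx3 was 97.9 CPM just inside and 5874 CPM just outside, and 1568 CPM in cells with 4 of the 6.

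Dendritic cell genes outside the rule were found in both libraries, beside RNA of monocyte genes, which is given below. Cells with fewer than 2 of the 8 macrophage and monocyte markers numbered 258 of 383 cDC2 in Runx3_fl and 114 of 324 in Runx3. Zbtb46 was at 144 CPM (95% exact Poisson interval 134 to 154) in Runx3_fl and 112 CPM (103 to 122) in Runx3, against 7.20 and 8.61 CPM in C1q-positive macrophages. Cells that met the rest of the rule with 0 of its 6 genes held it at 69.8 and 21.6 CPM. Sirpa was at 145 and 165 CPM in cDC2 and at 34.6 and 95.2 CPM in cDC1. The cells with 0 of the 6 genes held Sirpa at 95.6 and 235 CPM, so in Runx3 it was higher there than in cDC2. Irf4 was at 60.0 and 59.5 CPM in cDC2 and at 8.78 and 18.7 CPM in cDC1. Irf8, which cDC1 depend on, was at 268 and 155 CPM in cDC2 and at 733 and 704 CPM in cDC1. Itgam, which encodes the CD11b named in the labels, was at 81.2 CPM with a UMI in 50.9% of cDC2 of Runx3_fl, and at 150 CPM with a UMI in 72.5% of Runx3. Esam, a marker of a Notch2-dependent splenic subset, had 0 and 1 UMI. Itgae, which encodes CD103, was at 17.7 and 21.3 CPM, and Clec4a4 at 5.32 and 5.48 CPM. All intervals here and below cover counting error alone.

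**Figure D1:**
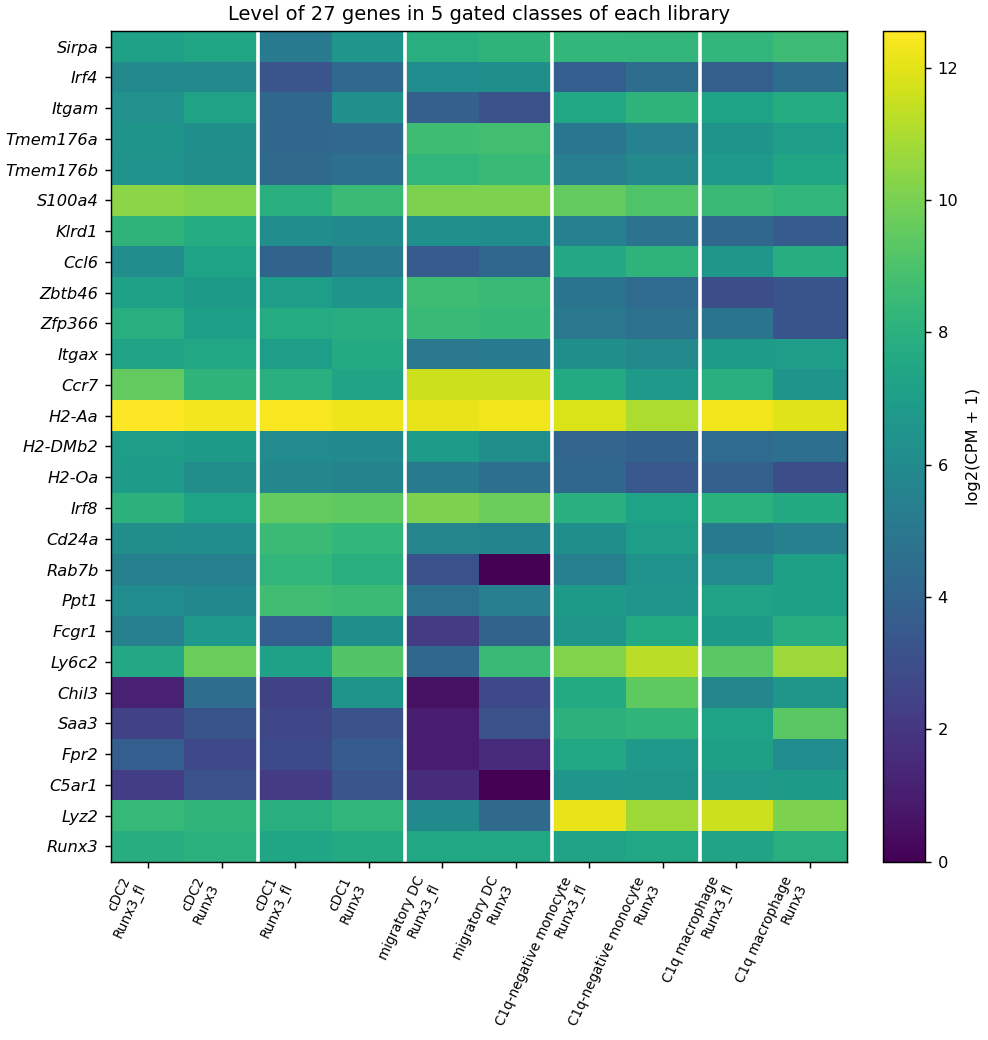
Heatmap of log2(CPM + 1) for 27 genes (rows) in cDC2, cDC1, migratory dendritic cells, C1q-negative monocytes and C1q-positive macrophages of each library (columns). In both libraries Irf4 and Zbtb46 were higher in cDC2 than in the monocytes and macrophages, and Cd24a was lower in cDC2 than in cDC1.

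The question of how common cDC2 were gave different answers against all cells and against other dendritic cells. cDC2 made up 3.22% of kept cells in Runx3_fl (exact Clopper-Pearson 95% interval 2.91 to 3.56) and 3.97% in Runx3 (3.55 to 4.41), a difference of 0.745 percentage points. cDC1, called by Xcr1 or Clec9a and a further marker, made up 3.68% (3.35 to 4.03) and 0.857% (0.669 to 1.08). Migratory dendritic cells, called by Fscn1 and Ccr7 together, made up 1.38% and 0.649%. cDC2 were thus 38.9% (35.9 to 42.0) of 984 cells in the 3 dendritic cell classes of Runx3_fl and 72.5% (68.1 to 76.6) of 447 in Runx3. Runx3_fl had 0.876 cDC2 per cDC1 and Runx3 had 4.63, a 5.28-fold difference (95% interval 3.94 to 7.08). The intervals of the cDC2 share of all kept cells met closely, at 3.56% and 3.55%, whereas those of the share among dendritic cells were far apart. The share of kept cells also depended on depth. When each cell was first drawn down to 3000 UMIs, 70 cells (0.656%) of Runx3_fl and 89 (1.56%) of Runx3 met the rule. That left out 1207 and 2470 kept cells with fewer UMIs. Shares depend on the sort and on the other cells present, as T cells numbered 2918 in Runx3_fl and 391 in Runx3, and C1q-negative monocytes were 7.22% and 16.5% of kept cells. The small difference in share turned around when cells with 2 or more of the 8 macrophage and monocyte markers were left out (added after seeing the data), to 2.17% in Runx3_fl and 1.40% in Runx3, and the fold of cDC2 per cDC1 was then 2.76. Such cells were left out of cDC2 alone and stayed among cDC1 and all kept cells. The markers were more abundant in Runx3, so neither value tells how common cDC2 were.

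**Figure D2:**
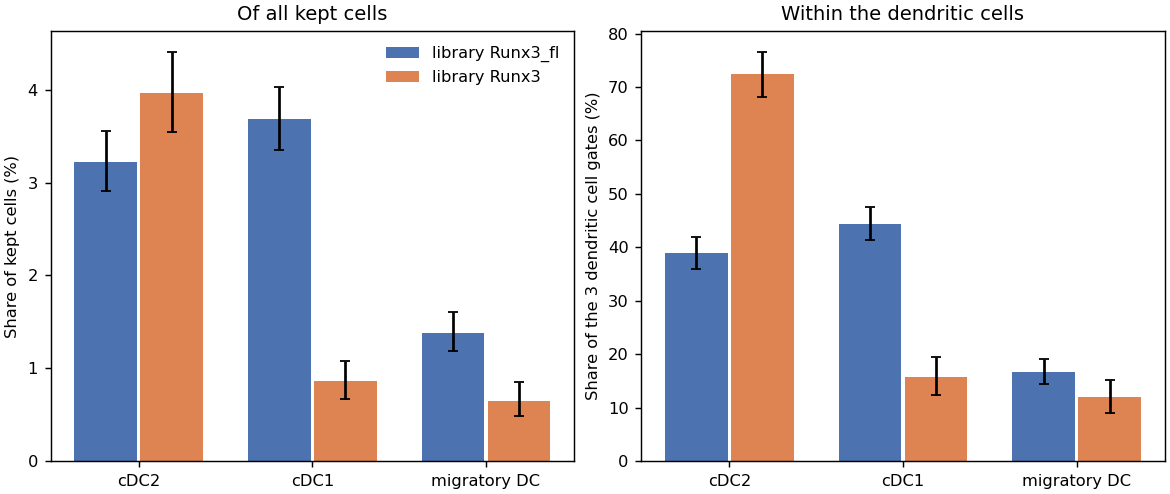
Bars show cDC2, cDC1 and migratory dendritic cells as percent of kept cells and as percent of the 3 classes together, for each library, with Clopper-Pearson 95% intervals as error bars. The bar of cDC1 is 3.68% of kept cells in Runx3_fl and 0.857% in Runx3, while that of cDC2 is 3.22% and 3.97%.

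Runx3, the gene the study targeted, was not lower in the cDC2 of the library labelled Runx3. It was at 224 CPM (212 to 237) in Runx3_fl and 258 CPM (244 to 273) in Runx3, a log2 ratio of Runx3 over Runx3_fl of 0.20 (0.09 to 0.32). The gene lies on the plus strand of chromosome 4, chr4:135120652-135177990 of GRCm38. A UMI of Runx3 was found in 83.0% and 83.3% of cDC2, and, after each cell was thinned to 3000 UMIs, in 39.2% and 48.4%. B cells, a class with less of it, gave 16.7% and 16.4% at the same depth and 74.1 and 77.0 CPM. Counts near a transcript's 3′ end need not fall in the floxed part, which is not given in the sources used here, so this level is no measure of whether the allele was cut. Lyz2, the Cre driver, was at 341 and 296 CPM in cDC2 against 4498 and 1714 CPM in C1q-negative monocytes. The relative Runx1, a hematopoietic transcription factor, was at 936 and 1528 CPM (log2 ratio 0.71, 0.66 to 0.76) and Runx2 at 347 and 238 CPM (−0.54, −0.65 to −0.44), while Cbfb, the shared partner of the Runx proteins, was at 91.0 and 101 CPM.

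Between the libraries, cDC2 of the library labelled Runx3 held more RNA of heat shock and immediate early genes and of some interferon-stimulated genes, and less of costimulatory ligands, Il12b, Ccr7 and interferon-γ-induced chemokines. The most abundant MHC class II genes, Cd74, H2-Aa, H2-Ab1 and H2-Eb1, were within 0.23 of equal on the log2 scale. The level limit was 50 CPM in either library with detection in at least 10% of its cDC2. Of the 3595 genes past it, 160 (4.45%) were at least 2-fold higher in Runx3 and 114 (3.17%) at least 2-fold lower, on the log2(CPM + 1) scale. The median log2 ratio of these genes was 0.07, with intervals above 0 for 1403 genes and below 0 for 1002. Without the Xist-holding cells, the log2 ratio was −3.66 for Il12b, −1.46 for Ccr7, −1.31 for Cd274, 2.64 for Irf7 and 2.81 for Hspa1a, close to the values given below. With the median set to 0, 49.8% of the 2-fold genes were higher in Runx3, compared with 58.4% as measured. Genes that passed the level limit only in the library where they are high are among those counted, so list counts are read against these shares of all genes and have no test.

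**Figure D3:**
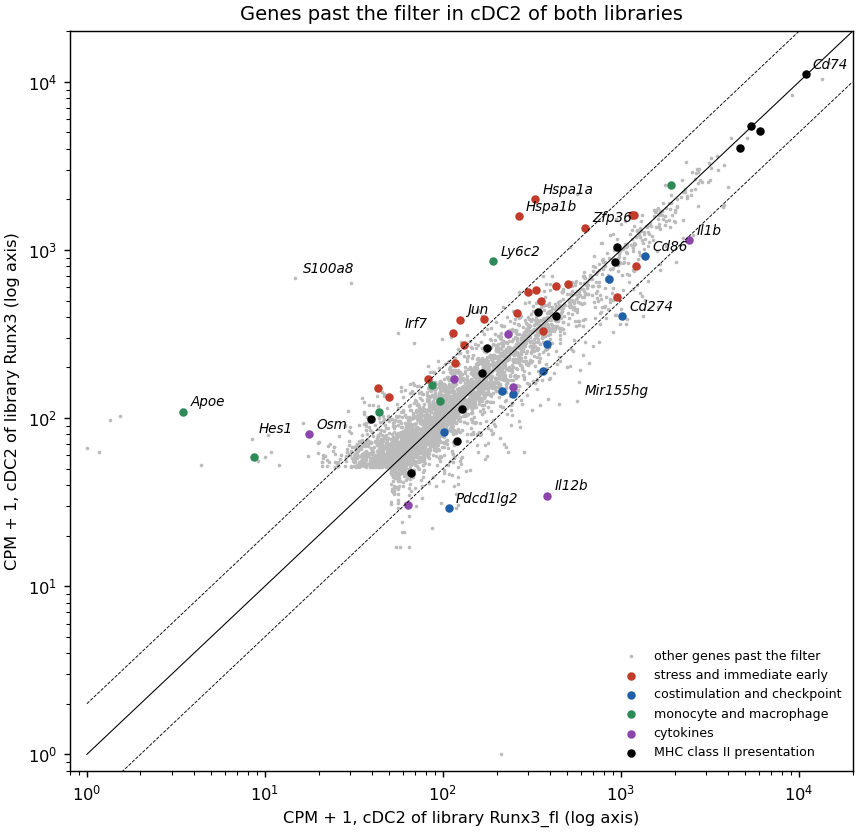
Each point is a gene in cDC2, with its CPM + 1 in the library labelled Runx3_fl on the x axis and in Runx3 on the y axis, both logarithmic, and genes of 5 lists in colour. The solid line marks equal levels and the dashed lines 2-fold differences. Hspa1a lies above them, at 328 and 1996 CPM, and Il12b below, at 385 and 33.5 CPM.

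The highest ratios in the library labelled Runx3 belonged mostly to genes of other cells. Of the 10 largest, 6 were neutrophil genes, namely Ngp (0.355 against 95.9 CPM), Retnlg (0.532 against 102 CPM), Camp (0 UMIs against 65.8 CPM), Lcn2 (0.177 against 62.0 CPM), S100a8 (13.8 against 676 CPM) and S100a9 (29.4 against 634 CPM). In Runx3 the 5 highest cDC2 held from 80.8% (Camp) to 94.2% (Retnlg) of the UMIs of each of these 6 genes. Low counts were widespread as well, since S100a8 was found in 3.92% of cDC2 of Runx3_fl and 59.9% of Runx3, and S100a9 in 5.48% and 63.3%. Apoe, a lipid carrier of macrophages, was at 2.48 and 108 CPM, with 61.3% of its UMIs in the 5 highest cells of Runx3. The others were Ifit3, the Notch target Hes1 (7.45 and 74.6 CPM) and the noncoding A330040F15Rik (3.37 and 51.9 CPM). Hes1 was in 4.70% and 27.8% of cDC2 and was higher in Runx3 in monocytes as well, at 12.4 and 184 CPM, and in T cells, at 2.81 and 75.1 CPM.

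The 10 largest ratios the other way were those of Xist, Il12b, Pdcd1lg2 and 7 further genes. Xist was at 210 CPM and 0 UMIs and is the sex difference given above. Serpinb9, an inhibitor of granzyme B, was at 284 and 62.2 CPM (log2 ratio −2.17, −2.38 to −2.01). Mir155hg, the host transcript of miR-155, was at 565 and 126 CPM (−2.16, −2.30 to −2.04), and was found in 83.6% and 40.4% of cells. Cblb, an E3 ubiquitin ligase that dampens immune receptor signalling, was at 448 and 121 CPM (−1.88). Procr, the protein C receptor, was at 121 and 29.5 CPM, Adgrg6 at 117 and 28.3 CPM, and the phosphatidylserine receptor Timd4 at 63.5 and 16.2 CPM. Gzma, a granzyme of cytotoxic lymphocytes, was at 85.3 and 21.1 CPM, with 73.0% of its UMIs in 5 cells of Runx3_fl, and its direction turned around when likely doublets were removed. In Runx3_fl, 11 of 383 cDC2 held 4 or more of 8 natural killer cell markers, and 3 of 324 did in Runx3.

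Of the 14 MHC class II presentation genes, 1 was at least 2-fold higher in Runx3 (4.45% of all genes were), 0 were 2-fold lower, and the list median was −0.04. The invariant chain Cd74, which guides class II molecules to peptide-loading compartments, was at 10886 CPM (10800 to 10973) in Runx3_fl and 11060 CPM (10965 to 11155) in Runx3. H2-Ab1 was at 5392 and 5436 CPM, H2-Aa at 6002 and 5132 CPM, and H2-Eb1 at 4652 and 4017 CPM. Members of the list went both ways, as 6 of the 14 had intervals above 0 and 6 below. Of all 3595 genes, 1403 had intervals above 0 and 1002 below. The class II transactivator Ciita was at 164 and 185 CPM. H2-Oa, part of the H2-O inhibitor of peptide loading, was at 119 and 72.3 CPM (−0.71, −0.91 to −0.53). The exception was March1, a ubiquitin ligase that removes MHC class II and CD86 from the surface, at 38.5 and 98.3 CPM (1.33, 1.12 to 1.59).

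Costimulatory and checkpoint ligands, which set the strength of the signal to T cells, were lower in Runx3 among the genes past the level limit. Of 12 genes 9 passed it, 9 of these had log2 ratios and intervals below 0, and the median was −0.58. Intervals were below 0 for 1002 of all 3595 genes past the limit. At least 2-fold lower were 2 of the 9, beside 3.17% of all genes. Cd274, which encodes PD-L1 and lies at chr19:29367455-29388095 on the plus strand (GRCm38), measured 1015 CPM (989 to 1041) in Runx3_fl and 404 CPM (386 to 422) in Runx3, giving the log2 ratio −1.33 (−1.41 to −1.26). Its neighbour Pdcd1lg2, which encodes PD-L2 and lies at chr19:29410919-29471161, measured 107 CPM (99.1 to 116) in Runx3_fl and 28.0 CPM (23.5 to 33.2) in Runx3, giving the log2 ratio −1.90 (−2.22 to −1.67). The CD28 ligands followed, with Cd80 at 365 and 190 CPM (−0.94) and Cd86 at 1370 and 917 CPM (−0.58). Cd40, the receptor for T cell help, was at 246 and 139 CPM (−0.81), and Cd83 at 859 and 670 CPM (−0.36). The 3 genes below the level limit differed in direction, with Icosl at 30.9 and 46.6 CPM, Tnfsf4 at 24.3 and 9.91 CPM and Cd70 at 7 and 4 UMIs. Of 383 and 324 cDC2, 19 and 5 held 4 or more of 8 migratory dendritic cell markers including Ccr7, a cell type rich in these ligands, and their part was not tested.

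At 3000 UMIs per cell, 79.1% of cDC2 of Runx3_fl and 54.1% of Runx3 held 4 or more of the 12 ligands. Cd274 was in 78.1% (73.6 to 82.1) and 46.2% (40.6 to 51.9) of cDC2 at that depth, and in 92.7% and 74.1% before thinning. T cells, which themselves make some Cd274, gave 29.0% and 34.2%, with median depths of 13133 and 8038 UMIs before thinning. The log2 ratio of Cd274 was also below 0 in cDC1 (−0.45), C1q-negative monocytes (−1.13) and C1q-positive macrophages (−1.07), and was 0.42 in T cells. Medians of the 9 genes were −0.28 in cDC1, −0.23 in migratory dendritic cells, −0.46 in C1q-negative monocytes and −0.62 in C1q-positive macrophages. They were 0.73 in T cells and 1.28 in B cells. The lower list was therefore not particular to cDC2.

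Among 17 cytokines 7 passed the level limit, 1 was at least 2-fold higher and 3 at least 2-fold lower, beside 4.45% and 3.17% of all genes. The median of the 7 was −0.69 in cDC2, −0.64 in C1q-negative monocytes and −0.77 in C1q-positive macrophages. It was 0.22 in cDC1 and 0.13 in migratory dendritic cells. Il12b encodes the p40 chain of IL-12 and IL-23 and lies at chr11:44400063-44414033 on the plus strand. It measured 385 CPM (369 to 402) in Runx3_fl and 33.5 CPM (28.5 to 39.2) in Runx3, giving the log2 ratio −3.48 (−3.76 to −3.29). Few cells held it, as 17.0% of cDC2 in Runx3_fl and 3.40% in Runx3 had a UMI, and at 3000 UMIs per cell 13.8% (10.5 to 17.7) and 2.20% (0.889 to 4.48). T cells, which should lack it, gave 0.758% and 0% at the same depth, the latter allowing up to 0.989%. The 5 highest cells held 36.5% of its UMIs in Runx3_fl and 83.0% in Runx3. Il12b was likewise lower in Runx3 in cDC1, at 333 and 17.1 CPM, and in migratory dendritic cells, at 904 and 134 CPM. Il12a, the p35 chain, had 3 and 9 UMIs.

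Il1b, which encodes interleukin-1β, was at 2408 and 1142 CPM (−1.08, −1.12 to −1.03) in cDC2, and Ebi3, the β chain of IL-27, was at 62.6 and 29.3 CPM (−1.07, −1.39 to −0.81). Il1rn, the interleukin-1 receptor antagonist, was at 248 and 153 CPM. Osm, a cytokine of the IL-6 family, went the other way at 16.7 and 79.5 CPM (2.19, 1.92 to 2.60). Tnf was at 114 and 170 CPM (0.57, 0.42 to 0.72), and Tgfb1 at 230 and 317 CPM.

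Of 12 chemokines 11 passed the limit, with 3 at least 2-fold lower and 3 at least 2-fold higher, beside 3.17% and 4.45% of all genes. The median of the 11 was −0.46 in cDC2, −1.24 in C1q-negative monocytes and −1.13 in C1q-positive macrophages. It was 0.43 in cDC1 and 0.04 in migratory dendritic cells. A lower list median was therefore not particular to cDC2. The CXCR3 ligands, which attract effector T cells and are induced by interferon-γ, were lower, with Cxcl9 at 1363 and 501 CPM (−1.44, −1.51 to −1.38) and Cxcl10 at 1002 and 446 CPM (−1.17, −1.24 to −1.09). Ccl5 was at 396 and 173 CPM (−1.19), with 52.8% of its UMIs in 5 cells of Runx3. The monocyte and macrophage chemokines Ccl2 (16.5 and 58.2 CPM), Ccl6 (70.9 and 155 CPM) and Ccl9 (36.5 and 99.9 CPM) were higher. These 3 were less than 2-fold apart under an alternative each, Ccl2 (0.27) with classing after thinning, Ccl6 (0.34) without the cells holding 2 or more macrophage and monocyte markers and Ccl9 (0.78) with a lectin required. Of the Ccl2 UMIs in Runx3, 47.8% were in 5 cells. Ccl5 was at −0.70 with Dpp4 left out of the rule. Monocyte and macrophage markers were higher in the same cells, as given above.

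Of 11 chemokine and migration receptors 6 passed the limit and 2 were at least 2-fold lower in Runx3, beside 3.17% of all genes. Ccr7, which guides dendritic cells to lymph nodes and lies at chr11:99144196-99155077 on the minus strand, measured 753 CPM (730 to 776) in Runx3_fl and 281 CPM (266 to 297) in Runx3, giving the log2 ratio −1.42 (−1.51 to −1.33). At 3000 UMIs per cell, 55.9% (50.7 to 60.9) and 25.5% (20.8 to 30.6) of cDC2 held it, against 72.8% and 40.1% before thinning. T cells are no blank here, since naive T cells use CCR7 too, and gave 4.75% and 28.0%. In migratory dendritic cells, which were chosen by it, Ccr7 was at 3134 and 2980 CPM. Of 8 migratory markers, the rule kept Fscn1 at 0, and the 7 without Ccr7 summed to 142 CPM in cDC2 of Runx3_fl and 82.7 CPM in Runx3, with 4 or more of them in 1 and 1 cells. Their part in the Ccr7 difference was not tested. Gpr183, the oxysterol receptor that places cDC2 in lymphoid tissue, was at 188 and 78.9 CPM (−1.25, −1.43 to −1.08), and the monocyte receptor Ccr2 was at 144 and 228 CPM (0.66).

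**Figure D4:**
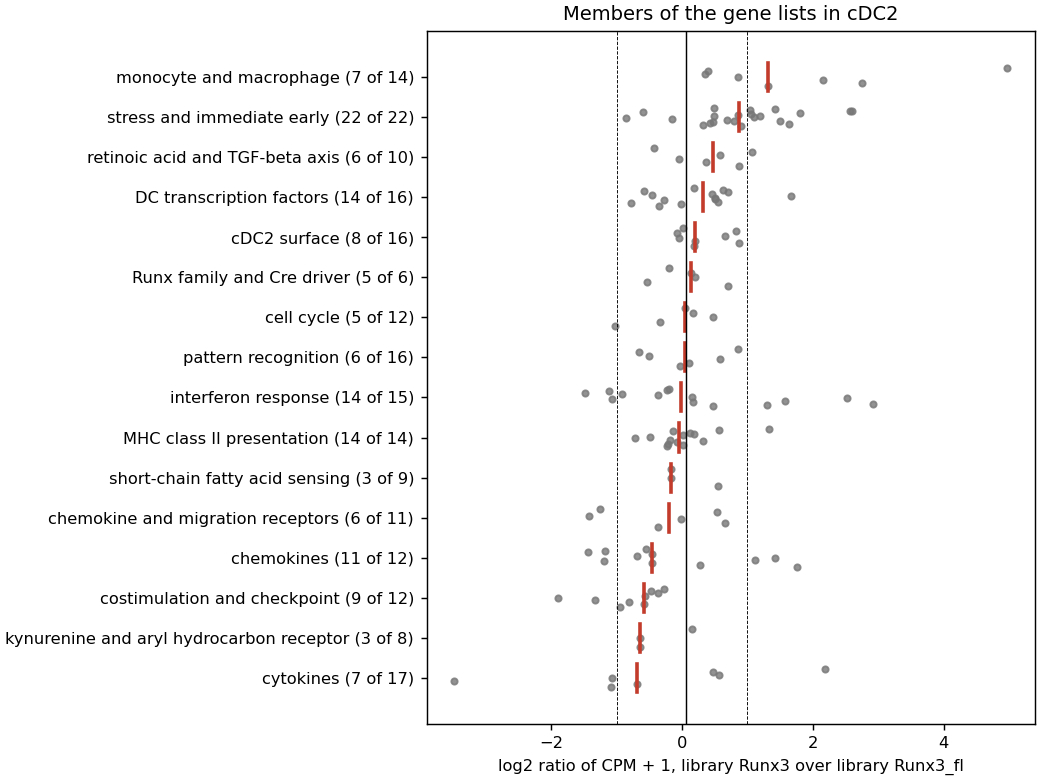
Log2 ratios of Runx3 over Runx3_fl in cDC2 for genes past the level limit, grouped in 16 lists (grey points, 1 per gene, with the number past the limit of those in the files in brackets), with the list median as a red line, the median of all 3595 genes at 0.07 as a solid black line and 2-fold differences as dashed lines. The costimulation list lies below 0 with a median of −0.58, and the stress list mostly above it with a median of 0.88.

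Genes of the interferon response split. Of 16 listed genes 14 passed the limit, with 4 at least 2-fold higher, 3 at least 2-fold lower and a median of −0.02. Of all genes, 4.45% were at least 2-fold higher and 3.17% at least 2-fold lower. Irf7, the transcription factor that amplifies type I interferon (chr7:141262706-141266481, minus strand), measured 54.6 CPM (48.7 to 61.1) in Runx3_fl and 320 CPM (304 to 336) in Runx3, giving the log2 ratio 2.53 (2.37 to 2.73). Ifit3 was at 9.40 and 77.8 CPM, Isg20 at 25.2 and 77.0 CPM and Ifit2 at 37.2 and 93.2 CPM. These are mainly targets of type I interferon. Isg15 (549 and 619 CPM) and Rsad2 (154 and 172 CPM), also type I targets, were within 0.17 of equal on the log2 scale. With cells holding 2 or more macrophage and monocyte markers left out, the log2 ratio was −0.72 for Isg15, −0.76 for Rsad2, −0.08 for Ifit2, 0.79 for Isg20 and 2.18 for Irf7, and the list median was −0.89. Some interferon-γ-inducible GTPases were lower, with Gbp5 at 134 and 47.2 CPM (−1.48), Iigp1 at 194 and 89.0 CPM (−1.11) and Gbp2 at 544 and 289 CPM (−0.91). Others differed little, with log2 ratios of −0.23 for Ifi47 and −0.20 for Irgm1. Oasl1 was at 439 and 209 CPM (−1.07).

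Irf7 was in 14.4% (11.0 to 18.3) and 46.9% (41.3 to 52.5) of cDC2 at 3000 UMIs per cell and in 41.0% and 85.2% before thinning. It was higher in Runx3 in the 4 classes set beside it, with log2 ratios of 3.15 in cDC1, 2.22 in C1q-negative monocytes, 2.23 in C1q-positive macrophages and 3.07 in T cells, where its share at 3000 UMIs was 4.65% and 29.6%. Ifit3 has a near-identical neighbour, Ifit3b, so its count is uncertain.

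Stress and immediate early genes, which are induced within minutes by heat, tissue dissociation or signalling, were higher in Runx3 as a list. Of 22 genes 22 passed the limit, and 10 of them were at least 2-fold higher, beside 4.45% of all genes. None of the 22 was 2-fold lower and the median was 0.88, with 0.07 over all genes. Intervals were above 0 for 19 of the 22, beside 1403 of all 3595 genes. The inducible HSP70 genes led. Hspa1a measured 328 CPM (313 to 343) in Runx3_fl and 1996 CPM (1956 to 2037) in Runx3, giving the log2 ratio 2.60 (2.53 to 2.68). Hspa1b measured 266 CPM (252 to 279) in Runx3_fl and 1584 CPM (1549 to 1621) in Runx3, giving the log2 ratio 2.57 (2.50 to 2.66). The genes are close copies, so reads may have been split between them.

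The 250 bases before the start of each are shown, from RefSeq on GRCm38.p6, because the copies extend into their promoters and carry the core of a heat shock element, the sequence that heat shock factor binds. Hspa1a is at chr17:34972157-34972406 and Hspa1b at chr17:34959239-34959488, both written 5′ to 3′ on the minus strand, with capitals for the match to GAANNTTC.
Hspa1a: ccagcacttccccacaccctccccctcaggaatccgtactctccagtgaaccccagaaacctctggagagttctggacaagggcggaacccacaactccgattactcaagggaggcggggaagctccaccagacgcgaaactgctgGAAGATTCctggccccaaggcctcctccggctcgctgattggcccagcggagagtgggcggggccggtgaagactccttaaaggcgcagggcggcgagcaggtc
Hspa1b: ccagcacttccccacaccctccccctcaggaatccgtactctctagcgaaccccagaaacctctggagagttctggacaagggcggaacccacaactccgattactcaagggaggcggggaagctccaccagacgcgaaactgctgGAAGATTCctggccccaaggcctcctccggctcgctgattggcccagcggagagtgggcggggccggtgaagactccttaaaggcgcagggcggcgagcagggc
The promoters were identical at 247 of 250 positions, and both had their match beginning 104 bases before the start. GAANNTTC reads the same on both strands and was in 6.69% of 32851 RefSeq promoters of that length, and in at least 1 promoter of 7.73% of 27025 genes. Among the stress list, 3 of 19 genes with a promoter held it, Hspa1a, Hspa1b and Jun, and among the costimulation list 0 of 5 did. The Runx core TGTGGT, searched on both strands, was in 14.0% of the promoters and 15.9% of the genes, in 0 of the 19 stress genes and in 0 of the 5 costimulation genes.

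Further members were co-chaperones and transcription factors. Dnajb1, a co-chaperone of HSP70, was at 48.6 and 133 CPM (1.43), and Hsph1, its nucleotide exchange factor, at 81.9 and 170 CPM. The AP-1 subunit Jun was at 124 and 384 CPM (1.63), Egr1 at 113 and 321 CPM (1.50) and Klf2 at 41.9 and 149 CPM (1.81). Zfp36, which encodes tristetraprolin and promotes decay of cytokine mRNA (chr7:28376784-28380253, minus strand), measured 630 CPM (609 to 651) in Runx3_fl and 1353 CPM (1320 to 1386) in Runx3, giving the log2 ratio 1.10 (1.04 to 1.16). The Nr4a nuclear receptors differed among themselves, with Nr4a1 at 259 and 420 CPM (0.69, 0.60 to 0.79), Nr4a2 at 365 and 329 CPM and Nr4a3 at 954 and 527 CPM (−0.86, −0.93 to −0.79). Klf6 was also lower, at 1211 and 805 CPM (−0.59). The 2-fold difference was lost for Klf2 (0.48) without the cells holding 2 or more macrophage and monocyte markers, for Dnajb1 (0.88) and Zfp36 (0.87) with classing after thinning, and for Hsph1 (0.76) with 4 of the 6 genes required.

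The stress list was higher in Runx3 in other classes too, with medians of 0.84 in cDC1, 0.68 in migratory dendritic cells, 1.10 in C1q-negative monocytes, 1.10 in C1q-positive macrophages, 1.39 in T cells and 1.45 in B cells. Hspa1a went from 38.2 to 717 CPM in T cells. The difference was therefore not particular to cDC2.

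**Figure D5:**
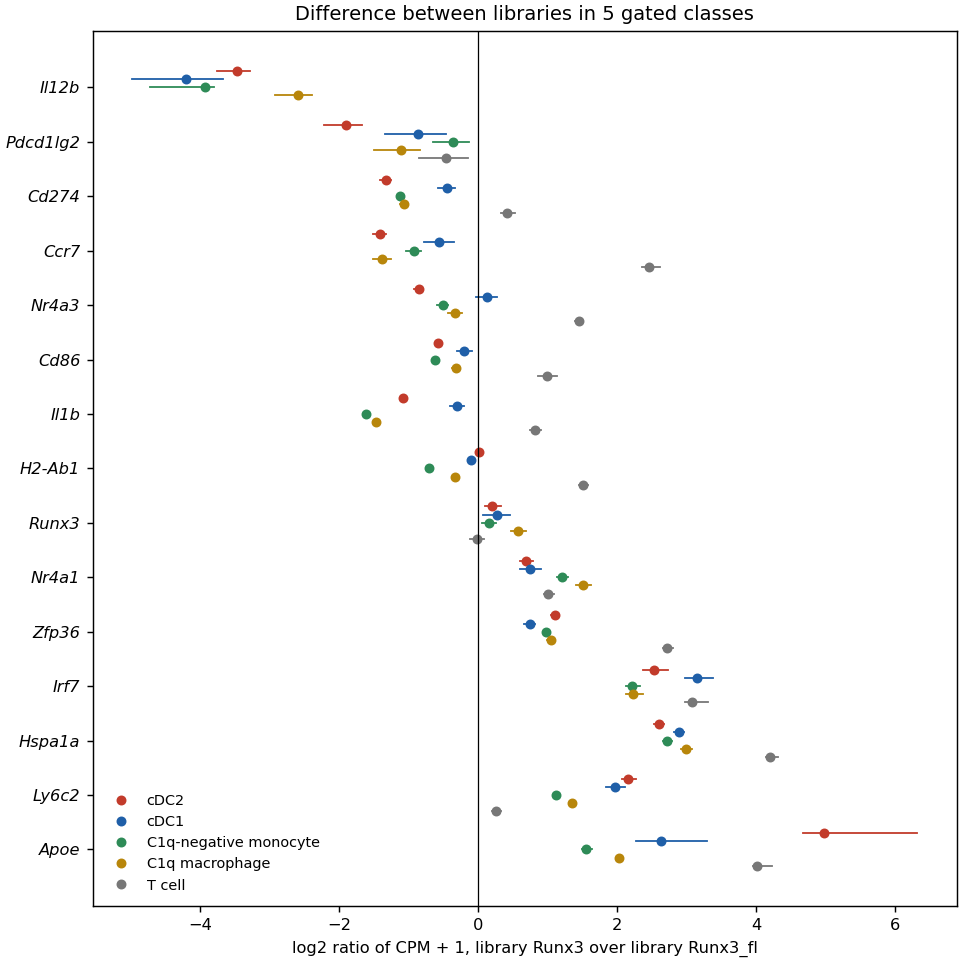
Log2 ratios of Runx3 over Runx3_fl for 15 genes in cDC2, cDC1, C1q-negative monocytes, C1q-positive macrophages and T cells, with 95% counting intervals as bars. A point is left out where the gene was below 20 CPM in both libraries. Hspa1a and Irf7 lie above 0 in these classes, and Il12b lies below 0 in cDC2 at −3.48 and in cDC1 at −4.21.

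Monocyte and macrophage genes were higher in cDC2 of the library labelled Runx3. Of 14 genes 7 passed the limit, 4 were at least 2-fold higher and 0 lower, beside 4.45% and 3.17% of all genes. The list median was 1.31. Ly6c2, the monocyte surface protein Ly6C (chr15:75108158-75111970, minus strand, with the close copy Ly6c1), measured 191 CPM (179 to 202) in Runx3_fl and 856 CPM (830 to 883) in Runx3, giving the log2 ratio 2.16 (2.07 to 2.27). Fcgr1, which encodes CD64, was at 42.9 and 108 CPM (1.31). The share of cDC2 with 4 or more of 8 macrophage and monocyte markers was 2.35% (9 cells) in Runx3_fl and 10.5% (34 cells) in Runx3. Medians of the list were 1.97 in cDC1 and 2.36 in T cells, which do not use most of these genes. With cells holding 2 or more of the 8 markers left out, Ly6c2 kept a log2 ratio of 1.36 and the list median was 0.39. Fewer such cells were left in Runx3 (114 cDC2) than in Runx3_fl (258).

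Transcription factors of dendritic cells were mixed, with 14 of 16 past the limit, 1 at least 2-fold higher, 0 at least 2-fold lower and a median of 0.32. As 4.45% of all genes were at least 2-fold higher and 3.17% lower, these counts are not read as a result. Bcl11a, which early dendritic cell progenitors need (chr11:24078056-24174123, plus strand), measured 41.5 CPM (36.4 to 47.2) in Runx3_fl and 134 CPM (124 to 145) in Runx3, giving the log2 ratio 1.67 (1.47 to 1.91). It was found in 30.8% and 46.6% of cDC2. Notch2 was at 106 and 174 CPM (0.70), Klf4 at 240 and 329 CPM (0.46) and Tcf4, the plasmacytoid dendritic cell factor, at 173 and 269 CPM. In Runx3, 5 cells held 28.8% of the Bcl11a and 27.9% of the Tcf4 UMIs. The other 7 of 8 plasmacytoid dendritic cell markers summed to 250 CPM in Runx3_fl and 439 CPM in Runx3. Bst2 alone made up most of both sums. It was at 233 and 420 CPM in cDC2 with a lectin and at 220 and 342 CPM in those without. Cells with 4 or more of the 7 markers numbered 1 in Runx3_fl and 3 in Runx3. The part of these markers was not tested. Irf8 was lower at 268 and 155 CPM (−0.78, −0.91 to −0.66), as were Relb, the noncanonical NF-κB subunit, at 224 and 150 CPM (−0.58) and Zeb2 at 1875 and 1370 CPM (−0.45). The log2 ratio of Irf4 had an interval across 0 (−0.01, −0.25 to 0.22).

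Lists for metabolite sensing, pattern recognition and the cell cycle had 3 to 6 genes past the limit each, too few to read against the 4.45% and 3.17% of all genes that were 2-fold apart. In the kynurenine and aryl hydrocarbon receptor list, Ahr was at 281 and 180 CPM (−0.64) and Kynu at 164 and 105 CPM, with 3 of 8 genes past the limit and 0 at least 2-fold apart. For short-chain fatty acids, Ffar3 had 0 UMIs in both libraries, the butyrate and niacin receptor Hcar2 was at 46.5 and 31.8 CPM, and 0 of 3 genes past the limit were 2-fold apart. In the retinoic acid and TGF-β list, 1 of 6 genes past the limit was at least 2-fold higher, the TGF-β signalling repressor Ski at 48.2 and 102 CPM (1.07, and 0.70 with a lectin required), and the retinoic acid receptor Rara was at 63.1 and 117 CPM (0.87). Aldh1a2, which makes retinoic acid, had 12 and 37 UMIs. Of pattern recognition genes, 0 of 6 past the limit were 2-fold apart, with Nlrp3, an inflammasome sensor, at 555 and 350 CPM (−0.66) and Cd14 at 85.5 and 156 CPM (0.86). Of cell cycle genes, 1 of 5 was at least 2-fold lower, the proliferation marker Mki67 at 178 and 86.5 CPM (−1.03, and −0.73 with a lectin required), whereas Top2a was at 87.3 and 69.2 CPM and Pcna at 216 and 244 CPM.

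cDC2 with a UMI of Cd209a or Clec10a differed from those without in some genes outside the rule, in both libraries. The split is by measured counts and is given as a description. Mgl2, the paralog of Clec10a that shares sequence with it, was at 32.8 CPM with and 4.41 CPM without in Runx3_fl, and at 62.1 and 6.68 CPM in Runx3. Itgam was at 109 with and 45.7 CPM without in Runx3_fl, and at 169 and 92.6 CPM in Runx3. Ccr2 was at 201 and 71.0 CPM in Runx3_fl and at 247 and 172 CPM in Runx3. Higher in the cells without a lectin were Tbc1d4, a regulator of vesicle transport, at 216 CPM with and 581 CPM without in Runx3_fl and 169 and 325 CPM in Runx3, and Nrg1, a growth factor of the neuregulin family, at 45.5 and 146 CPM and at 48.0 and 129 CPM. Il1rn was at 143 and 380 CPM and at 126 and 234 CPM. Zbtb46 was close between the 2 kinds, at 154 and 131 CPM in Runx3_fl and at 108 and 126 CPM in Runx3. Other genes went opposite ways in the libraries, as Adgrg6 was at 80.2 and 163 CPM in Runx3_fl and at 32.7 and 15.0 CPM in Runx3. Ccl17 was at 49.0 and 4.01 CPM and at 14.7 and 22.5 CPM. Neutrophil RNA in Runx3 was mostly in cells with a lectin, with S100a8 at 879 CPM with and 74.3 CPM without. The share of all genes that differed was not computed.

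Differences between libraries were also compared within each kind of cell. Cd274 was at 871 CPM in Runx3_fl and 348 CPM in Runx3 in cells with a lectin, and at 1196 and 569 CPM in cells without. Ccr7 was at 615 and 252 CPM with a lectin and at 926 and 367 CPM without. Il12b was at 351 and 32.7 CPM and at 429 and 35.9 CPM, and Hspa1a was at 382 and 1945 CPM and at 260 and 2146 CPM. These 4 genes differed in the same direction in both kinds.

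cDC2 were next compared with cDC1 of the same library. Of 3267 genes, 32 (0.979%) were at least 2-fold higher in cDC2 in both libraries, 49 (1.50%) at least 2-fold lower in both, and 0 at least 2-fold apart in opposite directions. The chemokine Ccl6 was at 70.9 and 155 CPM in cDC2 of Runx3_fl and Runx3 against 15.6 and 35.8 CPM in cDC1. Klrd1, which encodes CD94 (chr6:129591782-129598775, plus strand), was at 289 and 219 CPM against 71.1 and 62.6 CPM. S100a4 was at 1312 and 1148 CPM against 250 and 369 CPM, and Ifitm1, an interferon-induced membrane protein, at 2029 and 844 CPM against 371 and 302 CPM. The endocytic adaptor Dab2, the paired membrane proteins Tmem176a and Tmem176b, Ctnnd2, Nrg1, Irf4, Wfdc17 and Il2rg completed the first 12. Lower in cDC2 were Cd24a, a sorting marker of cDC1, at 72.7 and 70.6 CPM against 374 and 318 CPM, the lysosomal thioesterase Ppt1 at 66.9 and 57.4 CPM against 414 and 378 CPM, and the metalloprotease Adam19 at 23.8 and 19.2 CPM against 165 and 132 CPM. The 70 cDC1 of Runx3 held S100a8 at 3836 CPM, and fewer genes were 2-fold higher in cDC2 there (45) than in Runx3_fl (195).

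Compared with C1q-negative monocytes, 116 of 3326 genes (3.49%) were at least 2-fold higher in cDC2 in both libraries, 230 (6.92%) at least 2-fold lower in both, and 0 at least 2-fold apart in opposite directions. Class II loading factors were among the first 12, with H2-DMb2 at 127 and 113 CPM against 15.9 and 14.0 CPM and H2-Oa at 119 and 72.3 CPM against 18.0 and 9.70 CPM. Zfp366, a transcription factor of dendritic cells, was at 237 and 134 CPM against 31.8 and 24.9 CPM. Klrd1 was again higher, against 44.2 and 26.6 CPM in monocytes, and Tbc1d4 was at 377 and 209 CPM against 31.1 and 25.0 CPM. Lower in cDC2 were Chil3, a chitinase-like protein of monocytes, at 1.24 and 21.5 CPM against 201 and 700 CPM, the interleukin-1 gene Il1a at 11.4 and 7.80 CPM against 398 and 94.4 CPM, and the complement receptor C5ar1 at 3.90 and 8.01 CPM against 91.5 and 99.0 CPM. S100a8 was at 13.8 and 676 CPM against 376 and 13861 CPM.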

How the data were processed

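Colon cells of 2 libraries, 1 per group, had been sorted after Percoll separation and profiled with 10x Genomics 3′ chemistry version 3. The deposited files hold UMI counts per gene and cell that the authors made with Cell Ranger 7.1.0, per the file headers, not normalized and limited to barcodes called cells. Cell Ranger of this version counts intron reads unless told otherwise, and the setting is not given in the sources used here. The submitters' processing notes name mm10 and Seurat version 4. Of 32285 gene IDs, 32235 were found in GENCODE M21 (GRCm38), the source of gene coordinates.

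Cells with 200 to 6000 genes and at most 15% mitochondrial UMIs were kept, which left 11885 of 12968 and 8167 of 8953. Median depth of kept cells was 9573 and 5731 UMIs, and for a class with 0 cells the upper limit (3 counts of the total) was 0.0252% and 0.0367% of kept cells. Cells were classed by rules on UMIs. Doublets were not removed in the main analysis, beyond the limit on genes and the lineage genes required to be 0. UMIs were summed per class and library, divided by the total and multiplied to CPM, and compared as log2((CPM Runx3 + 1)/(CPM Runx3_fl + 1)). Intervals of sums are exact Poisson, of shares Clopper-Pearson, and of ratios from the exact binomial, without the added 1, at 95%. With 1 library per group, no test between libraries was possible and no p-value was computed.

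Between libraries, genes needed 50 CPM in a library and detection in 10% of its cells. The members of 17 gene lists (217 entries), the rule for cDC2 and the comparisons were chosen with earlier results of these data known. Named genes were all members of those lists, the 10 largest and 10 smallest ratios between libraries, the 12 largest differences each way between cDC2 and cDC1 and between cDC2 and C1q-negative monocytes, and sex-linked genes. Clec7a, Mx1 and Ahsp were not analysed here, and a few list members are not reported here by name. Shares of cells with a gene were also computed after thinning each cell to 3000 UMIs, which left out 0 and 6 cDC2. The computation was tested on simulated data. There were 12 alternatives, and 4 more were added after seeing the data. Scripts ran in Python 3.11.15 with scikit-learn 1.9.0, matplotlib 3.10.9, scipy 1.17.1, numpy 2.4.6 and pandas 2.3.3.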

Additional observations from a re-analysis of the deposited data

Results flagged for a closer look

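In 3 genes the difference between the libraries went one way in cDC2 and the other way in another class, with each log2 ratio of Runx3 over Runx3_fl at least 0.5 in size and its counting interval off 0. The difference between the classes was not tested, since there is 1 library per group. Tnf had a log2 ratio of 0.57 in cDC2, from 114 to 170 CPM, and −1.50 in C1q-negative monocytes, from 1034 to 366 CPM. With 2 of the 6 genes sufficing for cDC2, Tnf was at −0.02 in cDC2, so the opposite direction was not held there. Cd14 had 0.86 in cDC2, from 85.5 to 156 CPM, and −0.59 in C1q-negative monocytes, from 827 to 547 CPM, and was 0.28 in cDC2 without the cells holding 2 or more macrophage and monocyte markers. Oasl1 had −1.07 in cDC2, from 439 to 209 CPM, and 0.73 in cDC1, from 259 to 429 CPM.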

How the results depend on the processing

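Of 189 named genes past the level limit, 58 were at least 2-fold apart between the libraries. Under the 16 alternatives 54 of them held their direction and 35 stayed at least 2-fold apart in each. Il12b ranged from −5.25 to −3.15 on the log2 scale, Ccr7 from −1.73 to −1.28, Cd274 from −1.51 to −1.30, Irf7 from 2.18 to 2.86, Hspa1a from 1.85 to 2.82 and Runx3 from 0.13 to 0.37. The smallest size under any alternative fell short of 2-fold for Il1b (−0.94), Ebi3 (−0.89), Gpr183 (−0.87), Oasl1 (−0.88) and Btg2 (0.66). The stress median ranged from 0.68 to 1.08 and the costimulation median from −0.91 to −0.55.

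The difference in cDC2 share was 1.78 percentage points when 2 of the 6 genes sufficed and −0.775 when cells with 2 or more macrophage and monocyte markers were left out of cDC2 alone (added after seeing the data). That alternative also gave an interferon median of −0.89, Ifit2 −0.08 and Fcgr1 −0.35 and a cDC2 per cDC1 fold of 2.76, and classing cells after thinning gave 8.16. Genes at least 2-fold higher in Runx3 numbered 244 with classing after thinning, 549 with a 10 CPM limit and 1327 with 10 UMIs as the limit, which gave 290 lower ones. Genes higher in cDC2 than in cDC1 numbered 161 with classing after thinning, 74 with the 10 CPM limit, 183 with the 10 UMI limit, 20 with the mean of per-cell CPM and 21 with 10 CPM added. Those higher than in monocytes numbered 222 and 364 with the 10 CPM and 10 UMI limits. The transcription factor median was −0.12 with classing after thinning, the cytokine and kynurenine medians were 0.29 and 0.15 with either lower limit, and Gzma was 0.65 with likely doublets removed. Apart from the lower limits, which test more genes, the cause was not tested. Of 2-fold genes, 82.1% with the 10 UMI limit and 77.3% with the 10 CPM limit were higher in Runx3, and 62.1% without Xist-holding cells.

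No paired analysis was possible because each group has 1 library and leaving out a replicate leaves no group. Depth limits genes with few UMIs, such as Il12a and Aldh1a2. Library, sex of the animals, sort and genotype cannot be told apart.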
